A study of Mus musculus with 26 samples.

Results

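Tubulins are the proteins from which microtubules are built. An alpha and a beta tubulin join in equal numbers into a heterodimer, and heterodimers add to the ends of the polymer. Gamma tubulin sits in ring-shaped complexes from which new microtubules grow. Cells also adjust tubulin mRNA to the amount of free heterodimer: when heterodimer is abundant, a factor that recognises the emerging tubulin chain on the ribosome starts decay of the mRNA. The tubulins examined here are Tuba1a, Tuba1b, Tuba1c and Tuba4a (alpha), Tubb2a, Tubb2b, Tubb3, Tubb4a and Tubb5 (beta) and Tubg1 (gamma). They were chosen by gene symbol, and tubulins with other symbols were left out. All 10 were measured in each of the 3 genotype tables, among 8576 transcripts in the GS table, 8576 in the GS/DA table, 9561 in the KO table and 9602 over all tables. For 9 of them the symbol matched directly, and Tubb4a was listed under its older symbol Tubb4.

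Ribosome footprints and total RNA were sequenced from the striatum (caudate putamen) of C57BL/6 mice aged 3 months. GS LRRK2 TG mice carry a G2019S LRRK2 transgene, the Parkinson's disease mutation that raises kinase activity. GS/DA LRRK2 TG mice carry G2019S together with D1994A, which removes kinase activity. Both transgenes are regulated by doxycycline (Tet-off) and driven by CaMKII-tTA, and these mice are compared with non-TG controls. LRRK2 KO mice lack Lrrk2 and are compared with WT. Each library came from a pool of 3 mice of mixed sex, and every group has 2 or 3 libraries per assay. The labels list 3 non-TG control libraries per assay for both transgenic genotypes, and which of them stand behind each control mean is not given, so GS and GS/DA changes cannot be taken as independent.

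Each table gives 1 normalized mean per group and assay. A change is the log2 ratio of genotype mean to control mean. Translation efficiency (TE) is the log2 ratio of footprinting mean to RNA-Seq mean, and the TE difference is TE of the genotype minus TE of its control. A value of at least 0.25 in size is called past the cutoff, a rule without a p-value. For 10 of 12 columns of means, the read counts of 2 libraries behind the mean could be recovered, because only certain pairs of whole numbers give the printed value. The labels list 3 striatal footprinting libraries each for LRRK2 KO and WT, while their means resolved into 2. The 2 columns of GS controls did not resolve, so single GS libraries have no control libraries beside them. Library 1 and library 2 are names given here, matched between genotype and control by the difference between libraries that both share. Where 2 pairs of whole numbers fit a mean, the pair nearer to that shared difference was taken if the other lay far from it. This favours equal changes in both libraries, and such values are called chosen below.

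Lrrk2 itself shows the genotype of the libraries in footprinting. LRRK2 KO libraries held 102 and 150 normalized Lrrk2 footprints against 400 and 690 in WT, and 423 and 270 normalized Lrrk2 reads of RNA-Seq against 1278 and 733. GS/DA libraries held 7267 and 4766 footprints against 1445 and 1224 in controls. GS libraries held 7052 and 3320 against a control mean of 2524. Both footprinting libraries thus lie below WT in LRRK2 KO and above the controls in GS/DA, and both GS libraries lie above the control mean. RNA-Seq of Lrrk2 does not separate the transgenic mice: GS/DA libraries held 5038 and 404 against 5233 and 560, and the RNA-Seq change in GS was −0.16.

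Markers of the tissue were read as whole lists. Of 11 symbols of striatal projection neurons, 9 were listed, and their footprinting means sum to 104441 in the controls of GS, with Ppp1r1b the most abundant at 32311. In WT the same list sums to 30002, again with Ppp1r1b first. Cortical projection neuron symbols were listed at 3 of 6 in the transgenic tables, and their summed footprinting mean was 1343 in the controls of GS/DA and 3339 in GS/DA, a change of 1.31, with an RNA-Seq change of 1.16. The striatal list changed by −0.32 in footprinting and −0.20 in RNA-Seq in the same comparison. In GS RNA-Seq the cortical list changed by −0.79. Choroid plexus symbols, mostly Ttr, changed by −2.14 in GS footprinting and −1.46 in GS/DA footprinting. In LRRK2 KO RNA-Seq the summed lists changed by −0.26 for cortical neurons, −0.20 for astrocytes, −0.52 for choroid plexus and 0.33 for microglia, beside 0.07 for striatal neurons. The part of these shifts in the tubulin values was not tested.

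In GS LRRK2 TG, 0 of 10 tubulins passed the cutoff in footprinting, where 6.53% of all transcripts did, 0 in RNA-Seq, where 19.0% did, and 0 in TE, where 22.3% did. In GS/DA LRRK2 TG, 1 of 10 passed it in footprinting (7.02% of all transcripts), 2 in RNA-Seq (16.8%) and 0 in TE (14.6%). In LRRK2 KO, 0 of 10 passed it in footprinting (15.4%), 4 in RNA-Seq (25.4%) and 0 in TE (33.0%). The 4 in LRRK2 KO are 3 alpha tubulins and Tubb4a, all lower than in WT, and the GS/DA members are Tubb2a and Tubb2b, both higher than in controls. The 3 alpha tubulins, Tuba1a, Tuba1b and Tuba1c, share most of their coding sequence, as do Tubb2a and Tubb2b. Their values may rest on the same reads, so counts of tubulins here and below are not counts of independent measurements. These counts hang on single libraries. With 1 library left out the RNA-Seq count is 9 to 10 of 10 in GS, where 72.8% to 78.9% of all transcripts then pass, 5 to 9 of the 8 to 9 resolved tubulins in GS/DA (70.1% to 78.3%), and 1 to 8 of 10 in LRRK2 KO (32.3% to 59.9%). These values come from bulk tissue, in which fewer cells of a type and less RNA per cell cannot be told apart.

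**Figure D1:**
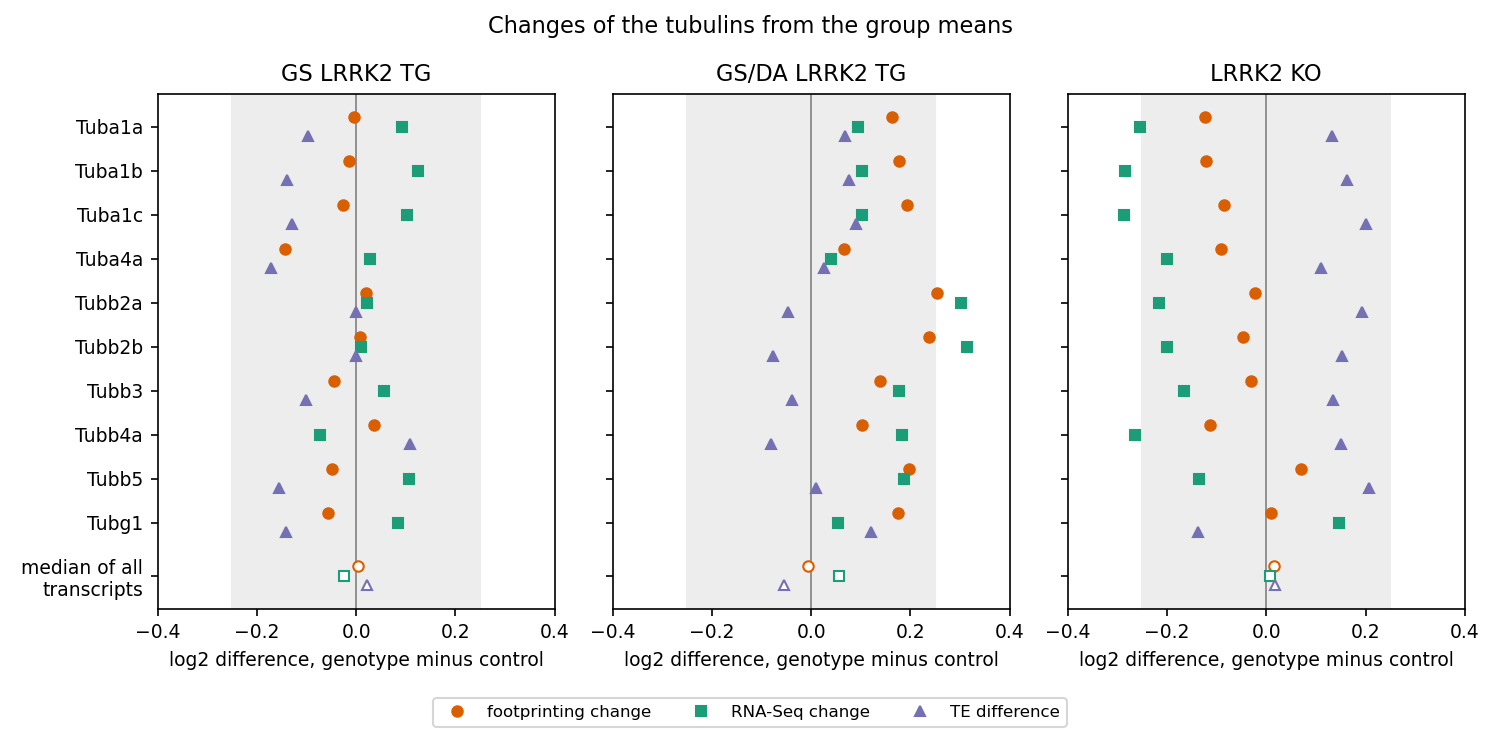
Footprinting change, RNA-Seq change and TE difference of each tubulin by genotype, with the median of all transcripts in the lowest line. The edges of the grey band mark the cutoff.

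The library values give a second count, of tubulins whose 2 genotype libraries both lie above, or both below, the 2 control libraries. In GS/DA footprinting 4 of 6 resolved tubulins are separated in this way, all with the genotype above, where 24.4% of all transcripts are separated. For 3 of the 6, Tuba4a, Tubb2a and Tubb2b, a pair was chosen, and of the 3 others 2 are separated, Tuba1b and Tubb3. In GS/DA RNA-Seq 0 of 8 are, where 3.36% of all transcripts are. In LRRK2 KO the counts are 0 of 10 in footprinting (12.6% of all transcripts) and 1 of 10 in RNA-Seq (14.1%). Fitted with limma, 0 tubulins and 0 (0%) of all transcripts had an adjusted p under 0.05 for footprinting, RNA-Seq or TE, in GS/DA as in LRRK2 KO. At an unadjusted p under 0.05, limma gave 157 transcripts in GS/DA footprinting, 0 in RNA-Seq and 0 in TE, and 15, 7 and 4 in LRRK2 KO, with no tubulin among them. The same limma fits did not call Lrrk2 either (adjusted p = 0.812 in GS/DA footprinting and 1.00 in LRRK2 KO footprinting), so a count of 0 does not show that the tubulins are unchanged. With the matched libraries as a block, limma did call Lrrk2 in footprinting (adjusted p = 0.00229 in GS/DA and 7.52e-22 in LRRK2 KO). That fit called 0 tubulins. Its block was set from these same values, and 1 residual degree of freedom is left in footprinting, so its p-values are uncertain. Lrrk2 changed far more than any tubulin, so its call does not show that changes as small as those of the tubulins would be found.

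The alpha genes Tuba1a, Tuba1b and Tuba1c lie close together on chromosome 15 and are hard to separate by short reads. Of all 30-base windows of the coding sequence, 99.6% of Tuba1a, 100% of Tuba1b and 98.6% of Tuba1c match elsewhere in the genome or transcript set with at most 1 mismatch. Tuba1a shares 94.3% of its windows with Tuba1b and 90.8% with Tuba1c. Tubb2a (87.5%) and Tubb2b (93.6%) are the closest beta pair, and Tubb2a shares 71.7% of its windows with Tubb2b. Tuba4a (36.6%), Tubb5 (22.9%) and Tubb4a (21.4%) are mostly unlike their relatives. For Tubg1 the figure is 54.2%, nearly all of it from Tubg2. How reads that match several copies were counted is not given in the sources used here, so values of single alpha copies are best read with their sum.

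**Figure D2:**
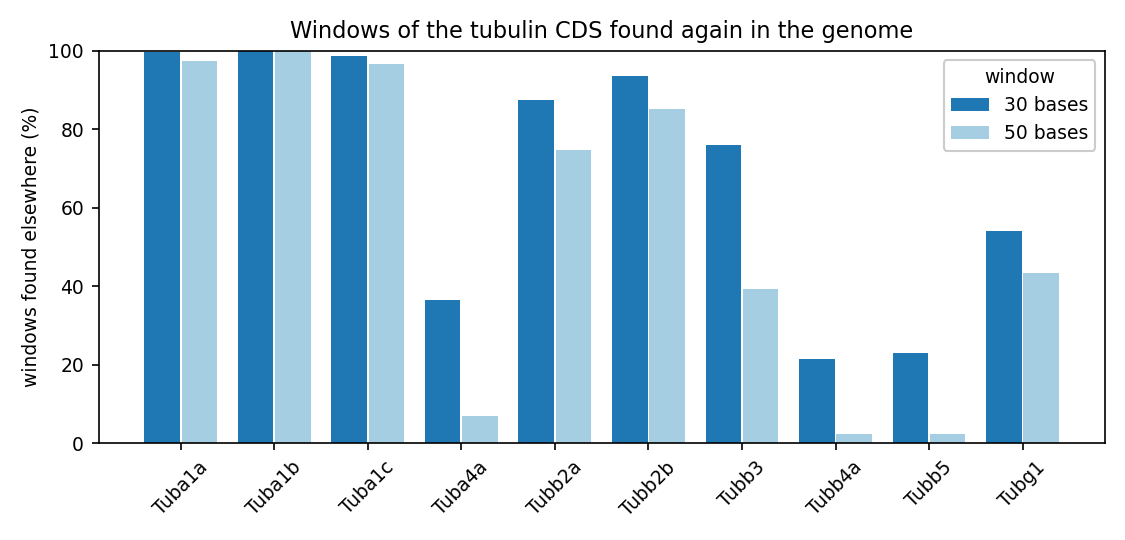
Percent of 30-base and 50-base windows of each tubulin coding sequence that match elsewhere with at most 1 mismatch.

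A stretch of the alpha coding sequence is shown because reads from it hardly separate the copies. Near the start, bases 4 to 33 of Tuba1a (chromosome 15, 98782093 to 98782122, minus strand of NCBIM37), Tuba1b (98763597 to 98763626, minus strand) and Tuba1c (98864525 to 98864554, plus strand) are given 5′ to 3′, with a capital where a base differs from Tuba1a.
Tuba1a: cgtgagtgcatctccatccatgttggccag
Tuba1b: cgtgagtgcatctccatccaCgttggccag
Tuba1c: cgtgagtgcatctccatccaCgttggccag
Tuba1b and Tuba1c differ from Tuba1a by T21C only, and not from each other.

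Tuba1a, Tuba1b and Tuba1c are the most abundant tubulins of the striatum in both assays. Per kb of coding sequence, footprinting in the controls of GS was 28509 for Tuba1a, 24624 for Tuba1b, 24447 for Tuba1c and 9007 for Tuba4a. The 3 similar copies make up 89.6% of the alpha sum there. RNA-Seq per kb had the same order, from 22500 for Tuba1a to 7834 for Tuba4a. The alpha sum per kb was 1.79 times the beta sum in footprinting and 1.89 times in RNA-Seq. Reads counted at several copies would enter such a sum more than once, so the ratio is not a ratio of molecules.

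The 4 alpha tubulins examined had footprinting changes from −0.14 to −0.0048 in GS LRRK2 TG. Tuba3a, an alpha tubulin left out by the choice of symbols, had 0.40 in footprinting and 0.55 in RNA-Seq there, both past the cutoff. Tuba1a, the main alpha tubulin of developing neurons, had 41320 and 35743 normalized footprints in the GS libraries, on both sides of the control mean of 38659, and a change of −0.0048. Tuba1b had a change of −0.01 in footprinting and 0.12 in RNA-Seq, and Tuba1c −0.03 and 0.10. Tuba4a, a copy of mature neurons and other differentiated cells, had the lowest footprinting value of the tubulins, −0.14, and the lowest TE difference, −0.17. Its GS libraries held 10056 and 11928 footprints, both below the control mean of 12132. Summed over Tuba1a, Tuba1b and Tuba1c, the TE difference was −0.12, made of −0.01 in footprinting and 0.11 in RNA-Seq.

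In GS/DA LRRK2 TG the alpha footprinting values were all above the controls. Tuba1b had 46078 and 44281 normalized footprints in GS/DA against 40732 and 39141 in controls, so the groups do not overlap, and library 1 and library 2 give the same change of 0.18. Tuba1a and Tuba1c, whose libraries did not all resolve, had changes of 0.16 and 0.19. Tuba4a overlapped under either pair of its controls, with 13882 and 16220 against 13073 and 15665, for the chosen pair, and a change of 0.07. In RNA-Seq the libraries of a group differ far more than the groups do, and not only for tubulins. Over transcripts with means of at least 500, the SD of the log2 ratio between 2 libraries was 1.45 to 1.72 in the transgenic tables' RNA-Seq. In their footprinting it was 0.285 to 0.336. The ratio had rank correlations with the GC content of the coding sequence of −0.77 to −0.81 in RNA-Seq and −0.36 to −0.51 in footprinting. The cause was not tested. RNA-Seq and TE values of the tubulins in these tables carry the RNA-Seq difference, and footprinting and TE values the smaller footprinting difference. As an example from RNA-Seq, Tuba1b had 17565 and 35296 (a chosen pair) in GS/DA against 19577 and 29672 in controls. Its RNA-Seq change of 0.10 is −0.16 in library 1 and 0.25 in library 2. The sum of Tuba1a, Tuba1b and Tuba1c changed by 0.18 in footprinting and 0.10 in RNA-Seq, a TE difference of 0.08.

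In LRRK2 KO the alpha tubulins had RNA-Seq changes from −0.29 to −0.20 and footprinting changes from −0.12 to −0.09. Tuba1b had 12241 and 11710 normalized RNA-Seq reads in LRRK2 KO against 11806 and 17354 in WT, a change of −0.28. Library 1 alone gives 0.05 and library 2 alone −0.57, so the value rests on the high WT library 2. Tuba1a (16067 and 14783 against 16019 and 20792) and Tuba1c (11969 and 11388 against 11766 and 16723) have the same pattern, with changes of −0.25 and −0.29. Tuba4a, with 5674 and 6230 against 5340 and 8342, had −0.20 and did not pass the cutoff. For these 4 alpha tubulins the libraries of LRRK2 KO and WT overlap. Over transcripts with means of at least 500, the SD of the log2 ratio between 2 libraries was 0.669 in WT and 0.656 in LRRK2 KO footprinting. In RNA-Seq it was 0.670 and 0.570. Rank correlations of this ratio with GC content of the coding sequence were 0.61 in WT and 0.26 in LRRK2 KO footprinting. In RNA-Seq they were 0.07 and −0.22. With limma, the RNA-Seq change of Tuba1b was −0.26 with a standard error of 0.30 (adjusted p = 1.00). Footprinting of the sum of Tuba1a, Tuba1b and Tuba1c changed by −0.11, RNA-Seq by −0.27 and TE by 0.16.

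**Figure D3:**
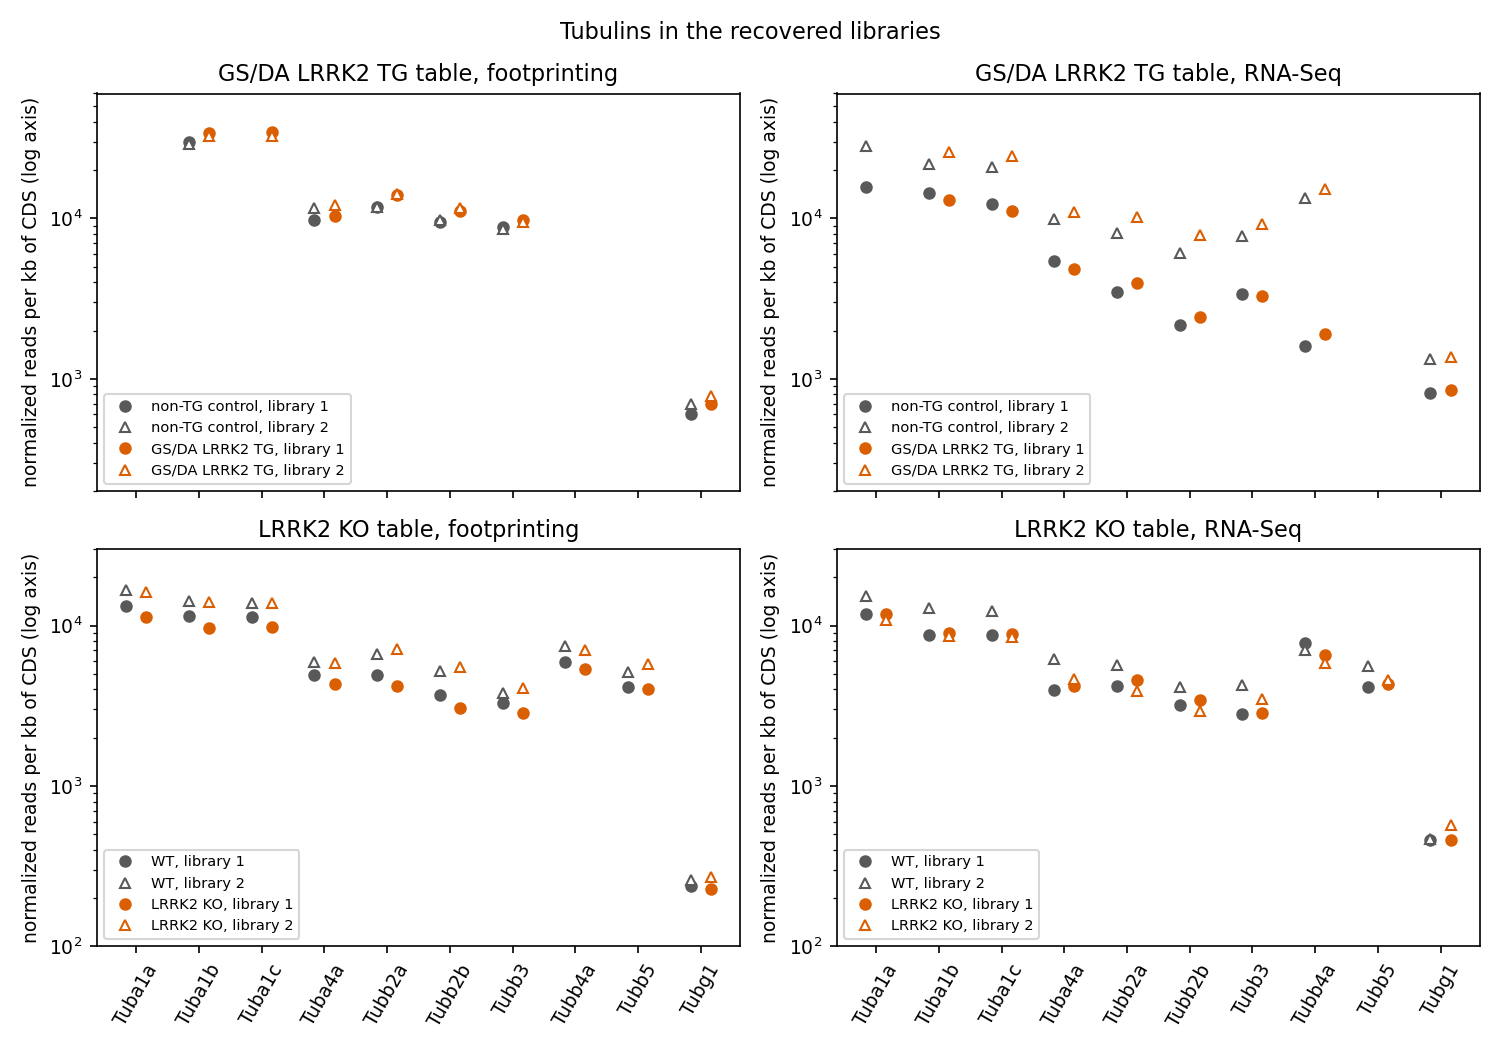
Normalized reads per kb of coding sequence of each tubulin in the recovered libraries of GS/DA LRRK2 TG and LRRK2 KO and their controls, in footprinting and RNA-Seq. Chosen pairs are included.

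Among the beta tubulins no copy dominates as the Tuba1 copies do. In the controls of GS, footprinting per kb ran from 12960 for Tubb4a through 10285 for Tubb2a, 9223 for Tubb5 and 8371 for Tubb2b, with Tubb3 lowest at 7399. The ends of the beta coding sequences are shown because beta tubulins are known to differ there, and because Tubb2a and Tubb2b differ by only G9A, T15C and A18G. They lie on chromosome 13 at 34166337 to 34166366 (Tubb2a, minus strand) and 34219340 to 34219369 (Tubb2b, minus strand), on chromosome 8 at 125945553 to 125945582 (Tubb3, plus strand) and on chromosome 17 at 57220113 to 57220142 (Tubb4a, minus strand) and 35971927 to 35971956 (Tubb5, minus strand). Capitals mark bases that differ from Tubb2a.
Tubb2a: gaggaggaggagggtgaagatgaggcttga
Tubb2b: gaggaggaAgagggCgaGgatgaggcttga
Tubb3: gaggaATCggaAgCCCaGgGGCCCAAGtga
Tubb4a: gaAgaggaggCTgAAgaGgaGgTggcttAa
Tubb5: TTCgGAgaggaggCAgaagaGgaggcCtAa
Tubb3 differs from Tubb2a at 16 of these bases, Tubb5 at 10 and Tubb4a at 9.

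In GS LRRK2 TG the beta tubulins lay within 0.05 of their controls in footprinting. Tubb2a, an abundant beta tubulin of brain, had 14254 and 13661 normalized footprints in GS, on both sides of the control mean of 13761, and a change of 0.02. Tubb2b had 0.01, Tubb3, the beta tubulin restricted to neurons, −0.04, and Tubb5, expressed in most cells, −0.05. Tubb4a, which neurons and oligodendrocytes express, had 0.04 and was the only tubulin with a positive TE difference, 0.11. Its RNA-Seq libraries in GS were 2485 and 19291, so the mean of 10888 stands for neither library. Tubb5 had the lowest TE difference of the beta tubulins, −0.16.

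Among the 10 tubulins, the largest footprinting changes were those of Tubb2a and Tubb2b in GS/DA LRRK2 TG. Tubb2a had a mean of 18797 normalized footprints in GS/DA against 15762 in controls, and the change of 0.25 passed the cutoff. Its control libraries were 15696 and 15829. The GS/DA mean fits 2 pairs of libraries, 18670 and 18924, which was chosen and lies above both controls, and 14110 and 23485, which overlaps them. With the chosen pair, limma gave a log2 change of 0.25 with a standard error of 0.11 (adjusted p = 1.00). Tubb2b, with 14922 and 15423 in GS/DA and a change of 0.24, was just under the cutoff. Its control mean also fits 2 pairs, 12749 and 12996, which was chosen and lies below both, and 8942 and 16802, which overlaps them. Summed, Tubb2a and Tubb2b changed by 0.25 in footprinting and 0.31 in RNA-Seq, a TE difference of −0.06.

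RNA-Seq of the same pair also lay above the controls, with wide gaps between libraries. Tubb2a had 5321 and 13709 normalized reads in GS/DA against 4664 and 10783 in controls, a change of 0.30 made of 0.19 in library 1 and 0.35 in library 2. Tubb2b had 3263 and 10519 against 2910 and 8173, a change of 0.31. For both, each GS/DA library lies above its matched control library while the groups overlap. Once the median of all transcripts is subtracted, only Tubb2b stays past the cutoff.

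Tubb3, Tubb4a and Tubb5 were below the cutoff in GS/DA. Tubb3 had 13203 and 12790 footprints against 11993 and 11625 in controls, without overlap, and a change of 0.14. Tubb5 had 0.20 and Tubb4a 0.10 in footprinting, from means whose libraries did not resolve. Tubb4a shows the widest gap between libraries in RNA-Seq, 2551 and 20268 (a chosen pair) in GS/DA against 2147 and 17948 in controls. The ratio between the control libraries of this gene is −3.06 on the log2 scale, far larger than its RNA-Seq change of 0.18.

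In LRRK2 KO, Tubb4a is the only tubulin below WT in RNA-Seq of both libraries. It had 8707 and 7788 normalized reads in LRRK2 KO against 10349 and 9455 in WT, a change of −0.26 without overlap, with −0.249 in library 1, just under the cutoff, and −0.28 in library 2. With limma the change was −0.26 with a standard error of 0.26 (adjusted p = 1.00). Its footprints, 7159 and 9337 against 7921 and 9932, overlap, with a change of −0.11. Tubb2a had 6110 and 5269 RNA-Seq reads against 5604 and 7620, and Tubb2b 4623 and 3907 against 4271 and 5525. Both have values above WT in library 1, 0.12 and 0.11, and below it in library 2, −0.53 and −0.50. Tubb3 (−0.17) and Tubb5 (−0.14) were nearer to WT, and Tubb5 had the highest TE difference of the tubulins, 0.21.

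Tubg1, the gamma tubulin of the ring complex, is far less abundant than the alpha and beta tubulins. In the controls of GS it had 587 footprints and 1057 RNA-Seq reads per kb. In GS/DA it had 938 and 1064 normalized footprints against 823 and 949 in controls, which overlap, and a change of 0.18. In LRRK2 KO it had 311 and 368 footprints against 321 and 353, and 622 and 774 RNA-Seq reads against 626 and 635. Its RNA-Seq change of 0.15 is the only positive RNA-Seq value of a tubulin in LRRK2 KO, and its TE difference of −0.14 the only negative one. In GS its TE difference was also −0.14, near those of Tuba1b and Tubb5.

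Taken as a list, the tubulins have a different offset in each comparison. Similar copies may share reads, so the tubulins in these tallies are not independent of each other. In GS/DA 10 of 10 tubulins had footprinting above 0, with a median of 0.18 against −0.01 for all transcripts, and 10 of 10 had RNA-Seq above 0, with 0.14 against 0.06. Measured from the median of all transcripts, 8 of 10 remain above in RNA-Seq, and in library 1 alone 4 of 8 resolved tubulins had RNA-Seq above 0. Of the resolved tubulins, 5 of 6 had footprinting above 0 without control library 1 and 6 of 7 without GS/DA library 2. Without control library 2 it was 6 of 6, and without GS/DA library 1 it was 7 of 7. Chosen pairs are included there. The RNA-Seq tally turns with the library left out. It is 0 of 9 above 0 without control library 1 and 0 of 8 without GS/DA library 2. It is 9 of 9 without control library 2 and 8 of 8 without GS/DA library 1. In LRRK2 KO 9 of 10 tubulins had RNA-Seq below 0, with a median of −0.21 against 0.01, and 9 of 10 had a TE difference above 0, with 0.15 against 0.02. Neither tally holds with library 1 of RNA-Seq, where 8 of 10 had RNA-Seq above 0. In library 2 of RNA-Seq, 9 of 10 were below 0. Library numbers are not matched between the assays, so TE is given for each join of a footprinting and an RNA-Seq library. With RNA-Seq library 1, TE differences below 0 were 9 of 10 beside footprinting library 1 and 6 of 10 beside footprinting library 2. With RNA-Seq library 2, 9 of 10 were above 0 beside either footprinting library. In GS 9 of 10 had a TE difference below 0, with a median of −0.12 against 0.02. This turns with the RNA-Seq library: 10 of 10 are below 0 without the first GS RNA-Seq library and 10 of 10 above 0 without the second. The 3 tubulins with mostly unique windows, Tuba4a, Tubb4a and Tubb5, have ranges that overlap those of the 7 others in each measure of each comparison, as in GS/DA footprinting with 0.07 to 0.20 against 0.14 to 0.25. A difference between these sets was not tested.

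Except for Tubg1, the tubulin mRNAs examined had a higher TE than most transcripts of normal striatum. Tubg1 lay at percentiles of 20.6 in the controls of GS, 18.5 in the controls of GS/DA and 34.7 in WT. The median TE of the 10 tubulins was 0.39 in the controls of GS against −0.17 for all transcripts, 0.67 against 0.04 in the controls of GS/DA, and 0.11 against −0.64 in WT. Tubb2b had the highest TE in all 3 sets of controls, 0.81, 1.22 and 0.28, and Tubg1 the lowest, −0.85, −0.71 and −0.90. In the controls of GS/DA the first rank depends on the RNA-Seq library. RNA-Seq library 1 held 2910 normalized reads for Tubb2b and 2147 for Tubb4a, beside footprinting means of 12872 and 21273. Tubb4a thus lies above Tubb2b with that library. Windows found elsewhere also depend on length: 93.6% at 30 bases and 85.3% at 50 for Tubb2b, 75.9% and 39.3% for Tubb3. For Tuba1b both are 100%. Reads that match several copies may thus enter footprinting and RNA-Seq, and so TE, to different degrees. This was not tested. The 5′UTRs of most of the 10 tubulins are predicted to fold weakly. Their median predicted folding energy was −22.9 kcal/mol, against −91.2 for all transcripts of the GS table. Tubb4a at −88.1 and Tubb5 at −66.0 lay nearer to that value. Tuba1c had the most negative energy, −201, beside −9.40 for Tuba1a and −5.86 for Tuba1b. Its TE difference was close to theirs in each genotype, though most of its windows are shared with them.

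How far the libraries share a sign differs by comparison. In GS/DA footprinting 3 of 3 tubulins without a chosen pair had the same sign in both libraries, against 60.6% of all such transcripts. In GS/DA RNA-Seq 3 of 6 did (37.8% of all such transcripts). In LRRK2 KO 4 of 10 did in footprinting (43.7%) and 1 of 10, Tubb4a, in RNA-Seq (48.1%). With the library pair as a block, limma gave an unadjusted p under 0.05 for 1210 of 8496 transcripts in GS/DA footprinting and for 4 of 6 tubulins. Of these, Tuba1b (adjusted p = 0.327) and Tubg1 (0.334) have no chosen pair. An adjusted p under 0.05 was found for 23 transcripts, none of them a tubulin. For the other 2, Tubb2a and Tubb2b, the block is not read, since choosing a pair lowers the residual that it tests.

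Proteins that fold, modify or cut tubulin were read as lists beside it. The chaperonin CCT and prefoldin, which fold new tubulin, had 10 of 14 symbols listed, with median TE differences of −0.04 in GS, −0.01 in GS/DA and 0.10 in LRRK2 KO. In GS 3 of them were past the cutoff upward in TE, as were 1462 of all 8576 transcripts, and Cct8 had 0.31 there and −0.24 in GS/DA. RNA-Seq of Cct8 changed by −0.33 in GS and 0.23 in GS/DA, and its footprinting by −0.02 and −0.01. Tubulin folding cofactors had 7 of 8 symbols listed, with medians of −0.07, −0.00 and −0.14, and Tbcd had −0.16 in both transgenic comparisons. RNA-Seq of Tbcd changed by 0.20 in GS and 0.19 in GS/DA, and its footprinting by 0.04 in both. Modifying enzymes had medians of 0.09, −0.07 and −0.05. Among them Agtpbp1, which removes glutamate from tubulin tails, had a TE difference of 0.41 in GS. Its RNA-Seq change there was −0.35 and its footprinting change 0.05.

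Stathmins, which bind free tubulin, and severing enzymes had 8 of 11 symbols listed, with median TE differences of 0.02 in GS, −0.03 in GS/DA and 0.01 in LRRK2 KO. Stmn1 in GS/DA had 0.33 in footprinting and 0.27 in RNA-Seq, above the cutoff in both assays as Tubb2a was. Stmn2 in LRRK2 KO had −0.55 in RNA-Seq and a TE difference of 0.47, the signs that most tubulins had. Of its list 1 symbol was past the cutoff upward in TE in LRRK2 KO and 2 downward. Of all 9561 transcripts, 1728 were past it upward there and 1430 downward. The ring complex of gamma tubulin, with 8 of 11 symbols listed, had 3 past the cutoff upward in TE in GS and 4 downward in GS/DA, with medians of 0.12 and −0.19. Of all 8576 transcripts, 1462 were past it upward in GS and 1128 downward in GS/DA. Median changes of the ring complex were −0.15 in GS and 0.23 in GS/DA for RNA-Seq, and 0.04 and 0.0007 for footprinting. Akap9, which anchors the complex, had TE differences of 0.40 in GS, −0.40 in GS/DA and −0.27 in LRRK2 KO, while Tubg1 had −0.14, 0.12 and −0.14. For Akap9 the RNA-Seq changes were −0.29, 0.23 and 0.20, and the footprinting changes 0.11, −0.17 and −0.06. RNA-Seq of the transgenic comparisons carries the differences between libraries given above.

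Other transcripts had the tubulin pattern too. The 6 footprinting and RNA-Seq changes of each of 1666 abundant transcripts were compared with the median tubulin. The nearest were Amph (distance 0.0771), Tubb2c (0.0827), Aars (0.0849), Cadps (0.0891) and Rogdi (0.0906). Tubb3, the nearest tubulin of those examined, lay at 0.0822, so transcripts outside the family come as near to the median tubulin as its members do. Amph and Cadps act at the presynaptic terminal, Aars charges tRNA with alanine, and Tubb2c is a beta tubulin left out by the choice of symbols.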

How the data were processed

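The deposited tables hold normalized signal, which the authors made as DESeq means per group and assay from reads in coding sequences. The processing notes of the submitters (the authors) name CASAVA 1.8, TopHat2 2.0.11, Bowtie2 2.2.2, DESeq 1.20 and the mm9 build. The authors' TE, dTE and z score columns held their own comparisons and were not used. TE and its difference were computed from the means. The tables were normalized separately, and every test was made within a table. Library reads were recovered from the means as weighted sums of 2 whole numbers, and 98.5% to 99.8% of transcripts had 1 such pair. The recovered libraries were fitted with limma 3.58.1 in R 4.3.3 on log2 normalized reads with a pseudocount of 10, adjusted over all transcripts. limma was not fitted for GS LRRK2 TG, because its control columns did not resolve. The members and lists were chosen with earlier results of these data known. Of each list, the transcripts with the highest and lowest TE difference among those with all 4 group means of at least 500 are named, as are the 5 transcripts nearest to the median tubulin and the markers most abundant in their list.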

Additional observations from a re-analysis of the deposited data

How the results depend on the processing

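Each mean stands for 2 or 3 pooled libraries, so the cutoff carries no error estimate, and the order of GS libraries is not matched to controls. Of 110 settings of the cutoff counts 60 gave the count printed above. No paired analysis was possible because the recovered libraries carry none of the replicate numbers of the labels, and read depth settles only some. A block on libraries matched by their values was fitted with limma instead. With 19328986 coding reads, GS/DA footprinting library 1 exceeds the mapped reads that the paper lists for replicate 1. Its matched control library, with 16015460, exceeds those of controls 1 and 2. These matched libraries thus have different replicate numbers, 2 and 3. In LRRK2 KO RNA-Seq the order of depths would allow a numbering, which was not fitted. limma and single libraries against single controls were not run for GS LRRK2 TG, whose control columns did not resolve. The cause of the moves below was not tested.

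In GS/DA LRRK2 TG the footprinting count of 1 became 2 at a cutoff of 0.2 and 0 at 0.4. The RNA-Seq count of 2 became 1 after subtracting the median of all transcripts, 0 at a cutoff of 0.4, 0 at a z score of 1.5, 0 of 8 with library 1 alone (36.9% of all transcripts) and 4 of 8 with library 2 alone (26.1%). The TE count of 0 became 2 of 6 with library 1 of both assays (33.0%) and 1 of 6 with footprinting library 2 and RNA-Seq library 1 (40.8%).

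In LRRK2 KO the footprinting count of 0 became 1 with library 1 alone (34.4% of all transcripts). The RNA-Seq count of 4 became 6 at a cutoff of 0.2, 0 at a cutoff of 0.4, 0 at a z score of 1.5, 0 with library 1 alone (16.3% of all transcripts) and 10 with library 2 alone (54.7%), 9 of them lower and 1 higher than WT. The TE count of 0 became 2 at a cutoff of 0.2, 4 with library 1 of both assays (38.3%), 5 with footprinting library 1 and RNA-Seq library 2 (61.3%), and 8 with library 2 of both (59.0%). The direction turns with the library: the 4 are all below 0, 4 of the 5 are above and 1 is below, and the 8 are all above.

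Leaving out 1 library gave counts of 0 to 2 in footprinting (15.4% to 27.7% of all transcripts), 9 to 10 in RNA-Seq (72.8% to 78.9%) and 2 to 10 in TE (31.7% to 79.5%) for GS. For GS/DA, where 6 to 9 tubulins resolved, it gave 0 to 3 (15.2% to 17.9%), 5 to 9 (70.1% to 78.3%) and 0 to 9 (22.7% to 77.4%). For LRRK2 KO it gave 0 to 8 (38.5% to 50.9%), 1 to 8 (32.3% to 59.9%) and 0 to 9 (39.5% to 61.1%). limma called 0 tubulins in every setting with 2 libraries per group, and without the block it did not call Lrrk2 in the full set. With the block it called Lrrk2 in footprinting (adjusted p = 0.00229 in GS/DA and 7.52e-22 in LRRK2 KO). The block was set from these same values, so its p-values and calls are uncertain. Over all transcripts, limma calls in GS/DA footprinting went from 0 to 23 with the library pair as a block. Fits with 1 library left out leave 1 library in a group. Their spread comes only from the other groups, so their calls are not read. In LRRK2 KO the block gave 14 in footprinting and 11 in RNA-Seq against 0 without it. On transcripts with only 1 pair of whole numbers the block gave 26 in GS/DA footprinting, and 14 and 10 in LRRK2 KO. The limma fits on these transcripts were chosen after seeing the data.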
